A study of Mus musculus with 48 samples.

Results

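Olfactory receptors, named Olfr in the mouse, form the largest gene family of the mouse genome. They are G protein-coupled receptors with 7 transmembrane segments, their coding sequence lies in a single exon, and they are best known from the sensory neurons of the nose, where each neuron uses a single receptor gene. Binding of an odorant activates the G protein subunit Gnal, the adenylyl cyclase Adcy3 and a cyclic nucleotide-gated channel of which Cnga2 is a part. A few members have described roles outside the nose.

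The probes described here are those for Olfr genes that were detected in the medial prefrontal cortex (mPFC) on every array. Members were selected on measured signal: a member was a probe that is no control, whose gene name begins with Olfr and which the scanner software marked as well above background on all 24 mPFC arrays. These were 62 of the 1196 Olfr probes on the array, for 62 different genes, among 28947 probes detected by the same rule. The rule used signal strength in the mPFC, so that the presence and the brightness of these probes there are descriptions and were not tested. The set was proposed after Olfr genes had been seen among the highest rises with ovariectomy.

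The mice were female C57BL/6J animals aged 17 weeks. They were sham-operated and not stressed (control), sham-operated and exposed to chronic ultra-mild stress (CUMS), ovariectomized and not stressed (OVX), or ovariectomized and stressed (OVX+CUMS), with 6 mice in each group. RNA of the dissected mPFC and of whole blood was hybridized to 48 one-color arrays. The sample titles do not state that equal numbers in both tissues mark the same mouse. Each level below is the log2 processed signal minus the 75th percentile of its array, so that 0 is the brightness that 1 in 4 probes of the array exceed. The 8 arrays of a slide were not spread over all groups. In both tissues slide 1 held 6 control and 2 CUMS mice, slide 2 held 4 CUMS and 4 OVX mice, and slide 3 held 2 OVX and 6 OVX+CUMS mice. Control and OVX+CUMS mice shared no slide, so that slide and group cannot be told apart between them.

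The dissected tissue carried the markers of cortical neurons. All 9 listed genes were detected on all 24 mPFC arrays, including the vesicular glutamate transporter Slc17a7 at 3.26 ± 0.16 (SD, n = 24) and the transcription factor Tbr1 at 5.32 ± 0.12 (SD, n = 24). Of these 9 genes, Snap25 and Nrgn were also on all 24 blood arrays, at 7.12 and 5.16 there. All 6 listed striatal genes on the array and all 6 listed oligodendrocyte genes were on all 24 mPFC arrays as well. Blood genes were present too, since the hemoglobin gene Hba-a1 stood at 4.26 in the mPFC and at 12.30 in blood. Of 7 olfactory bulb markers on the array, 5 were also on all 24 mPFC arrays (Cdhr1, Doc2g, Th, Sp8 and Tpbg), while Eomes was on 0 and Tbx21 on 20. The part of bulb tissue in the Olfr signals was not tested. In bulk tissue, fewer cells of a type and less RNA per cell cannot be told apart.

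Detection of Olfr probes was rare. The members were 5.18% of all Olfr probes, whereas 53% of all other probes passed the same rule in the mPFC. Of the remaining Olfr probes, 525 were well above background on no mPFC array and 609 on 1 to 23 arrays. Single mPFC arrays detected between 130 and 243 Olfr probes, with a median of 184.5. Among other chemoreceptor families, the rule was passed by 12 of 179 probes for vomeronasal type 1 receptors, 13 of 124 for vomeronasal type 2 receptors, 3 of 37 for bitter taste receptors and 0 of 15 for trace amine-associated receptors.

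Most members were dim. Their median level was -3.12, against -0.18 for all probes detected in the mPFC, and 33 of the 62 stood at -3 or below. The levels fell off steeply from a small bright group. Levels of different probes depend on the probe as well as on the RNA, so the order that follows is one of signal and not of transcript abundance.

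**Figure D1:**
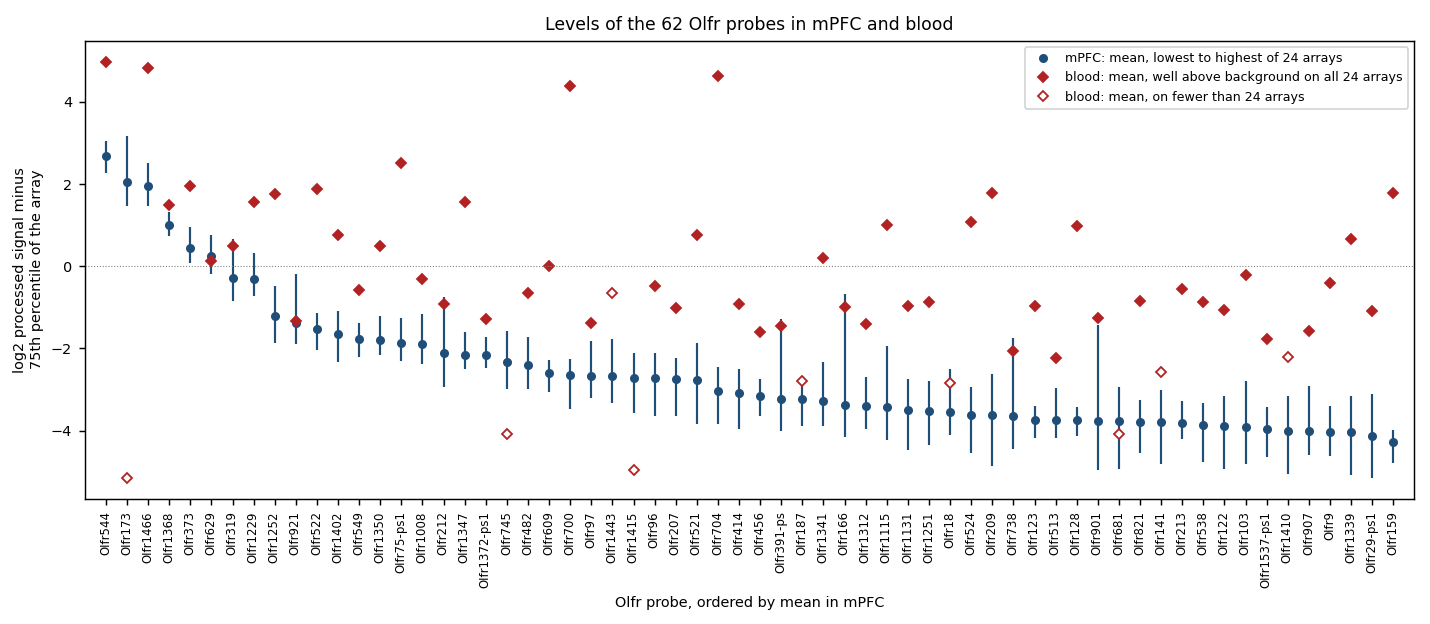
Levels of the 62 Olfr probes, as log2 processed signal minus the 75th percentile of the array. Blue points and bars give the mean and the lowest to highest of 24 mPFC arrays, and red diamonds the blood mean, open where the probe was on fewer than 24 blood arrays. Olfr544 leads at 2.68 in mPFC, and Olfr173, second in mPFC, was well above background on 0 blood arrays.

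The brightest member was Olfr544, a receptor known outside the nose from adipose tissue and pancreas. It stood at 2.68 ± 0.16 (SD, n = 24), with arrays between 2.27 and 3.05. Its control arrays lay between 2.78 and 3.05 with a median of 2.80, its arrays of CUMS mice between 2.52 and 2.80 with a median of 2.59, its OVX arrays between 2.52 and 2.80 with a median of 2.57, and its OVX+CUMS arrays between 2.27 and 2.82 with a median of 2.75. The groups overlapped, and its OVX effect of -0.12 ± 0.06 (SE) did not pass (adjusted p = 0.138). Unstressed OVX mice alone differed from control mice by -0.24 ± 0.08 (SE, limma, adjusted p = 0.028). In blood its OVX effect was -0.83 ± 0.12 (SE, limma, adjusted p = 9.2e-05). These fits did not regard slide. Of the other receptors listed for roles outside the nose, none was a member. Olfr78, known from the carotid body and kidney, was on 13 of 24 mPFC arrays and Olfr558 on 14. Olfr16, known from sperm, and Olfr110 and Olfr111 were on 0.

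Olfr173 was the second brightest member and was not detected in blood. Its mPFC level was 2.04 ± 0.42 (SD, n = 24), with signals from 1727 to 5160. In blood its probe was well above background on 0 of 24 arrays, with signals from 1.64 to 10.6. Set against the background limit of each blood array, its normalized level was at least 44.4-fold higher in the mPFC. The bound uses the limit at -3.43, and the measured blood mean was -5.15. The 75th percentile to which each level refers was 572 to 689 on mPFC arrays and 54.9 to 192 on blood arrays, so that folds between tissues refer to each tissue's own scale. Within the mPFC, Olfr173 had a median of 2.15 in control mice (1.88 to 2.85), 1.99 under CUMS (1.46 to 2.41), 1.77 after OVX (1.66 to 1.99) and 1.96 with both (1.55 to 3.17). All groups overlapped. Its OVX effect was -0.14 ± 0.16 (SE, adjusted p = 0.527).

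Olfr1466 followed at 1.95 ± 0.26 and Olfr1368 at 1.01 ± 0.15 (SD, n = 24 each). Olfr373 stood at 0.45 ± 0.26, Olfr629 at 0.26 ± 0.24, Olfr319 at -0.28 ± 0.47 and Olfr1229 at -0.31 ± 0.35. Olfr544 and Olfr173 overlapped in range, as did Olfr173 and Olfr1466, while the lowest Olfr1466 array at 1.46 lay above the highest Olfr1368 array at 1.33. At the other end, the dimmest members were Olfr159 with a mean signal of 32.2, Olfr29-ps1 with 37.7, Olfr9 with 39.2, Olfr907 with 40.1 and Olfr1339 with 40.3. Just outside the rule, 10 Olfr probes were detected on 23 arrays. These included Olfr48 with a mean signal of 55.4, Olfr149 with 50.1, Olfr1143 with 43.9, Olfr1030 with 42.8 and Olfr434 with 39.2, so that the mean signals on either side of the limit overlapped.

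The sequences of the probes differed between members and other Olfr probes. The median G+C content was 45% in members and 40% in the other Olfr probes, and pyrimidines made up 60.8% against 48.3% of the bases. A run of at least 4 C was held by 18 of 62 member probes (29%) and by 78 of 1134 others (6.88%). Among the non-Olfr probes, such a run was held by 13.3% of those detected and 8.01% of those not detected. A run of 4 G was not more frequent in members, with 4.84% against 7.85%. Codons of the Asn-Pro-X-Ile-Tyr segment, which many Olfr proteins share in their last transmembrane helix, were searched as a motif on both strands. The motif took only X codons with T in the middle and only the ATC codon of Ile, so segments coded otherwise were missed. It was found on the probe strand of 7 member probes (11.3%), of which 6 also had a C run. The same strand held it in 49 other Olfr probes (4.32%) and in 0.0184% of all other probes. On the opposite strand 0 Olfr probes and 2 of the other probes held it. These features were chosen after the sequences had been read and are descriptions only.

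Probe sequences are given here from the 8 brightest members, the 6 highest rises and the 6 deepest falls with OVX, with the second probe of Olfr373. Printed are those counted as within the coding length of the RefSeq model. Longer models, such as the 1122 bases of Olfr629, were not counted. A probe not printed can thus still lie in coding sequence, and Olfr29-ps1 is a pseudogene by its name. The sequences show which bases the signals below rest on. They are printed 5′ to 3′ as the array files give them, with runs of 4 or more C in capitals, and coordinates are mm9.
Olfr1368, chr13:21234026-21234085, minus strand: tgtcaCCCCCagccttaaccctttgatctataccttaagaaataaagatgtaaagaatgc
Olfr373, chr8:74624499-74624558, plus strand: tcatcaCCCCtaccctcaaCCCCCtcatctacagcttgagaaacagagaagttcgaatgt
Olfr373 second probe, chr8:74624539-74624598, plus strand: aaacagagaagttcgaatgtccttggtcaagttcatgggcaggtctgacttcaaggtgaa
Olfr319, chr11:58515786-58515845, plus strand: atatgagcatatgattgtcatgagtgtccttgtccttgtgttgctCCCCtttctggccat
Olfr1229, chr2:89122461-89122520, minus strand: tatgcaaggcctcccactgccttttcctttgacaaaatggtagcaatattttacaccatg
Olfr1339, chr4:118407306-118407365, plus strand: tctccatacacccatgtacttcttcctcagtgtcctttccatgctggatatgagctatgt
Olfr29-ps1, chr4:43794498-43794557, minus strand: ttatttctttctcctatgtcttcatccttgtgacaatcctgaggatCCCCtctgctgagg
Olfr166, chr16:19486994-19487053, plus strand: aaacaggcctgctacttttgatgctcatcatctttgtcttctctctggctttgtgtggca
Olfr538, chr7:147760787-147760846, plus strand: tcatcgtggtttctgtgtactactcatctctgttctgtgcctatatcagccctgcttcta
Olfr1415, chr1:94387395-94387454, minus strand: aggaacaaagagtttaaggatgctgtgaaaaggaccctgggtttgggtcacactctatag
Olfr1410, chr1:94505050-94505109, plus strand: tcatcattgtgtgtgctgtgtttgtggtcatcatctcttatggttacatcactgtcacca

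Detection rose with the G+C content of the probe within the Olfr family. Of 315 Olfr probes with up to 35% G+C, 4 were members (1.27%), and the shares were 3.04%, 8.22% and 14.5% in the classes over 35 to 40%, over 40 to 45% and over 45%. All other probes showed no such order, with 54.1%, 51%, 48.5% and 62.1%.

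**Figure D2:**
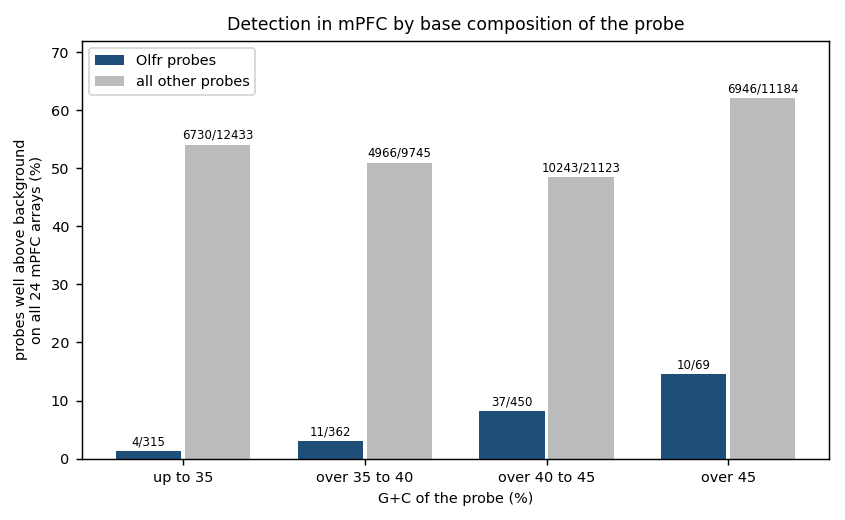
Share of probes (%) well above background on all 24 mPFC arrays, by G+C content of the probe (%), for Olfr probes and for all other probes. Figures over the bars give detected over all probes. The Olfr share rises from 1.27% to 14.5% over the 4 classes.

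A second probe for the same gene was present for 6 member genes, and no second probe met the rule. Olfr373 had a mean mPFC signal of 863 on the member probe and 3.45 on its second probe. Both probes lie on the same strand, within the coding length, and share 20 bases. The second probe of Olfr373 was on 0 of 24 arrays in either tissue. For Olfr629 the signals were 755 and 8.78, for Olfr75-ps1 174 and 4.21, for Olfr1115 61.6 and 3.93, and for Olfr681 a mean of 48.96 and 7.96. Only Olfr456 had a second probe detected on several mPFC arrays, at 13 of 24, with 19.6 against 70.8. In blood, both probes of Olfr456 were on all 24 arrays, and the second was the brighter, with 55.9 against 37.9. The probes of Olfr1115 abut each other on the genome. The second probes of Olfr373, Olfr629, Olfr75-ps1 and Olfr1115 were on 0 of 24 mPFC arrays, so that their signals are background and give no ratio.

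**Figure D3:**
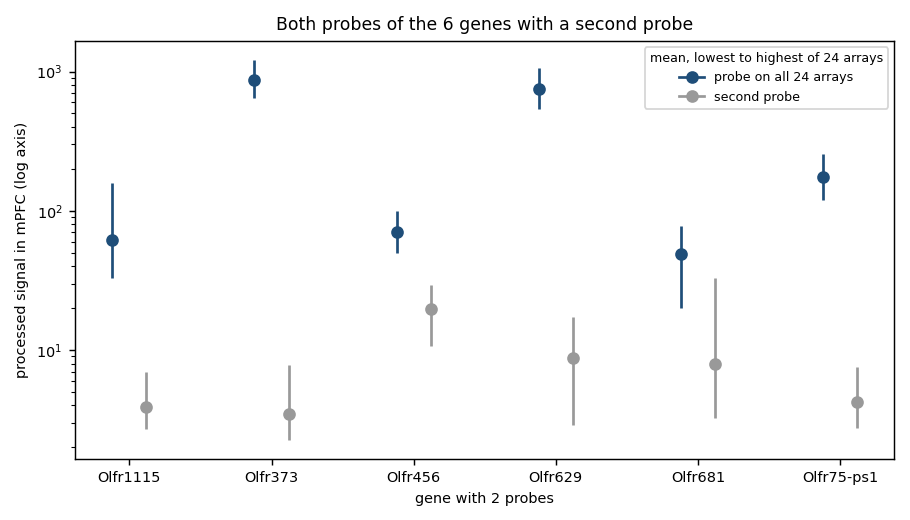
Processed signal in the mPFC (log axis) of both probes of the 6 member genes that have a second probe. Points and bars give the mean and the lowest to highest of 24 arrays, for the member probe in blue and the second probe in grey. The second probes of Olfr1115, Olfr373, Olfr629 and Olfr75-ps1 were on 0 of 24 arrays, that of Olfr681 on 1 and that of Olfr456 on 13.

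With the exception of 1 probe, members shared no run of 25 bases with any other probe of the array on either strand. The exception was Olfr75-ps1, which shared one with the probe of Olfr389, on 1 of 24 mPFC arrays. A non-Olfr probe lay within 10000 bases of only 1 mapped member, Olfr549, next to Trim21 on the other strand. The members came from many receptor clusters, with 15 of 256 Olfr probes on chromosome 7, 8 of 308 on chromosome 2, 6 of 50 on chromosome 17 and 5 of 146 on chromosome 9.

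Most listed genes of odorant signaling were also detected in the mPFC. Of 15 listed signaling genes on the array, 14 were detected on all 24 arrays, with Gnal at 4.55 ± 0.07, Adcy3 at -0.50 ± 0.16 and Cnga2 at -0.76 ± 0.14 (SD, n = 24 each). These genes also work in cortical and striatal neurons or other cells. Omp, the marker of mature olfactory sensory neurons, was detected on all arrays at -3.20 ± 0.25, with a mean signal of 68.8. Of 9 listed genes of these neurons, 5 were on all 24 arrays: Omp, Cnga2, Cnga4, S100a5 and Gng13. Of these, Omp (-0.82), Cnga2 (0.88) and S100a5 (7.69) were also on all 24 blood arrays, while Cnga4 and Gng13 were on 0. Detection of these probes is thus not particular to tissue with olfactory neurons. Umodl1 was on 22 arrays and Ano2 on 21. Stoml3 was on 2 of 24 arrays and Rtp1, which carries receptors to the cell surface, on 10. Of the 14 signaling genes, 4 were higher and 1 lower with OVX, and of 15 detected genes of receptor trafficking and choice 1 was higher (Lbr) and 1 lower (Rtp2). Of all probes tested, 30.4% were called for OVX.

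The comparison of ovariectomized with sham-operated mice asked how the loss of ovarian hormones bears on expression. Without regard to slide, 34 of the 62 members (54.8%) passed the threshold for OVX in the mPFC, against 30.4% of all 28947 probes tested. Of these, 9 were higher (14.5%, against 18.8% of all probes) and 25 were lower (40.3%, against 11.6%). The median change was -0.19 over the members and 0.04 over all probes. Members made up 0.214% of the probes tested. Among the 50 highest rises of all probes 7 were members and among the 50 deepest falls 0 were, while the 500 highest rises held 9 and the 500 deepest falls held 8. High Olfr rises were the reason for choosing the set, so that the counts of rises are a description. The rises lay between 0.35 and 0.85 and the falls between -0.77 and -0.22 on the log2 scale.

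The rising members were dim, with mean levels between -4.12 and -3.22. Olfr209 rose most, by 0.85 ± 0.15 (SE, adjusted p = 0.000226). It lay between -4.86 and -3.62 in control mice with a median of -3.90, between -4.16 and -3.79 in CUMS mice with a median of -4.08, between -3.92 and -2.71 in OVX mice with a median of -3.36, and between -3.46 and -2.62 in OVX+CUMS mice with a median of -3. The OVX+CUMS arrays all lay above the control arrays. By slide, its 4 OVX mice on slide 2 averaged -3.63 and its 2 OVX mice on slide 3 averaged -2.94, whereas the 4 CUMS mice on slide 2 averaged -3.98.

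Olfr1339 rose by 0.83 ± 0.15 (SE, adjusted p = 0.000402). Its medians were -4.33 in control, -4.62 in CUMS, -3.69 in OVX and -3.47 in OVX+CUMS mice. The control range of -5.03 to -3.99 and the OVX+CUMS range of -3.99 to -3.15 met at their ends. Olfr29-ps1, listed as a pseudogene by its name, rose by 0.67 ± 0.15 (adjusted p = 0.00189), Olfr391-ps by 0.61 ± 0.15 (adjusted p = 0.00393) and Olfr538 by 0.58 ± 0.13 (adjusted p = 0.00144).

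Olfr166 rose by 0.67 ± 0.25 (adjusted p = 0.0489), but its OVX+CUMS arrays ran from -3.63 to -0.67, with the highest array 1.86 above the next, at -2.53. This call was lost in 18 of the 24 fits that each left out an array. The remaining rises were Olfr103 by 0.57, Olfr1312 by 0.50 and Olfr128 by 0.35.

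**Figure D4:**
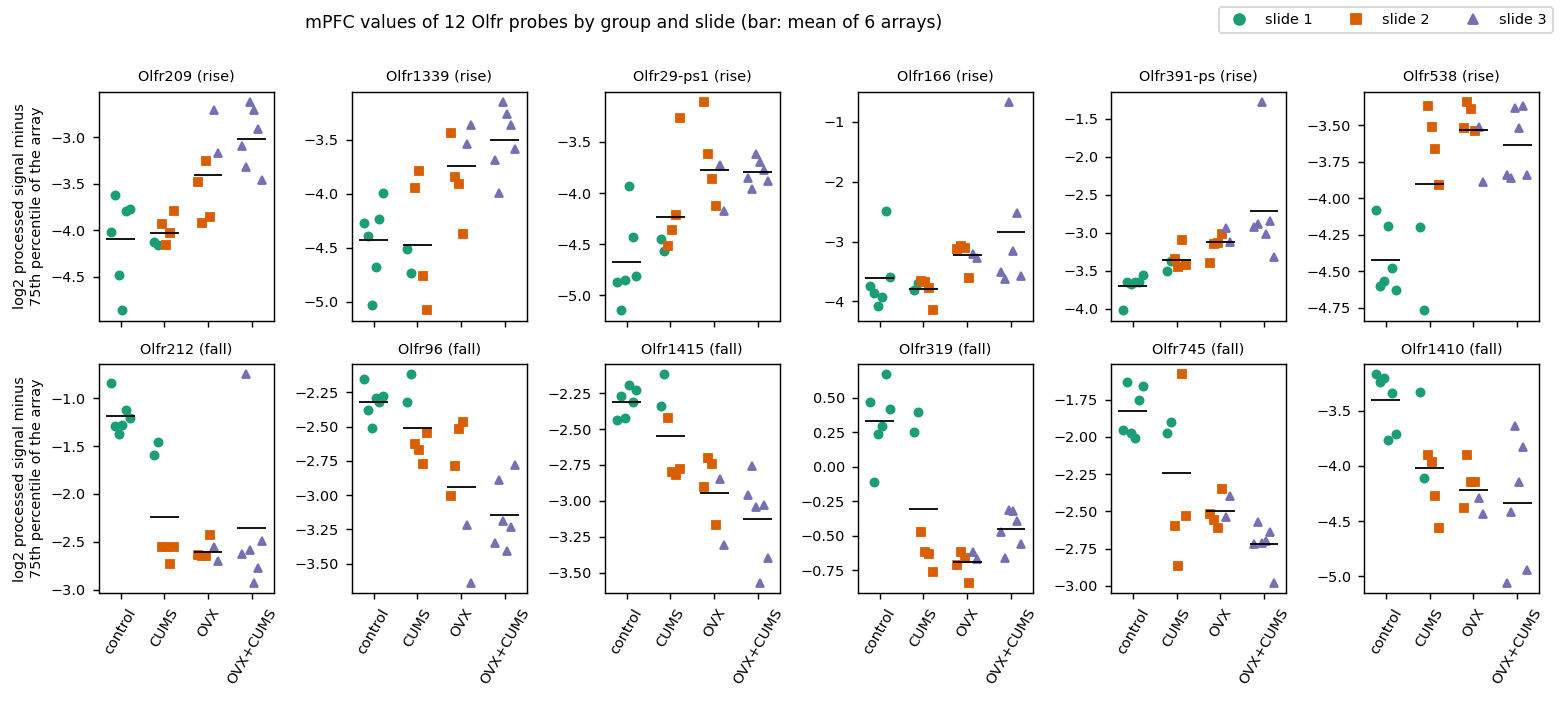
mPFC values, as log2 processed signal minus the 75th percentile of the array, of the 6 members with the highest rise and the 6 with the deepest fall with OVX. Points are arrays, colored and shaped by slide, and bars are means of 6 arrays. In Olfr212 and Olfr319 the 2 CUMS mice of slide 1 lie apart from the 4 CUMS mice of slide 2.

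Among the falling members Olfr212 fell by 0.77 on the log2 scale, with an SE of 0.19 (adjusted p = 0.00441). Its control arrays lay between -1.37 and -0.84, its CUMS arrays between -2.73 and -1.46, its OVX arrays between -2.70 and -2.43, and its OVX+CUMS arrays between -2.93 and -0.75. The 2 CUMS mice on slide 1 averaged -1.52, beside -1.18 in the controls of the same slide, and the 4 CUMS mice on slide 2 averaged -2.60, beside -2.59 in the 4 OVX mice of that slide. Olfr319 showed the same layout, with 0.33 in CUMS mice on slide 1, -0.62 in CUMS mice on slide 2 and -0.71 in OVX mice on slide 2. Its OVX effect was -0.58 ± 0.11 (SE, adjusted p = 0.000653).

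Olfr96 changed by -0.62 ± 0.11 (adjusted p = 0.000329), Olfr1415 by -0.61 ± 0.10 (adjusted p = 0.000123), Olfr745 by -0.57 ± 0.11 (adjusted p = 0.000479) and Olfr1410 by -0.57 ± 0.15 (adjusted p = 0.00685). Olfr1415 lay between -2.44 and -2.19 in control mice and between -3.57 and -2.76 in OVX+CUMS mice, without overlap. Of the 8 brightest members, 5 were lower with OVX: Olfr1466 by -0.25, Olfr373 by -0.35, Olfr629 by -0.22, Olfr319 by -0.58 and Olfr1229 by -0.43, while Olfr544, Olfr173 and Olfr1368 did not pass.

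Between control and OVX+CUMS mice, 5 members were higher and 20 lower without overlap of the 6 arrays of each group. These are 8.06% and 32.3% of the members, against 8.46% of all probes in each direction. The same 25 members were separated in the same way between all 8 arrays of slide 1 and all 8 of slide 3. The share of all probes separated between these slides is not given here, so the count is not read as particular to the members.

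The slide was examined next, since it moved with the groups. With slide as a block, 0 of the 62 members and 0 of the 28947 probes passed for OVX in limma, and 2 members were at an unadjusted p under 0.05, as were 1923 of all probes. Olfr209 then changed by 0.28 ± 0.30, Olfr1339 by 0.38 ± 0.34, Olfr538 by 0.17 ± 0.20, Olfr212 by -0.03 ± 0.38 and Olfr319 by 0.01 ± 0.15 (SE). Only slide 2 held sham-operated and ovariectomized mice together, and there they differed in stress as well. The blocked OVX effect therefore also contains the CUMS effect, which was estimated on the other slides. The smaller group on each of those slides held only 2 mice. The SE of Olfr209 was 0.15 without slide and 0.30 with it, and that of Olfr212 was 0.19 and 0.38. With this lower precision, 0 calls do not show that OVX had no effect.

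On slide 2 itself, 4 OVX mice were compared with 4 CUMS mice. Of the members, 0 passed in limma, with 3 at an unadjusted p under 0.05, and 5 of 28947 probes passed (0.0173%, with 0.00345% higher and 0.0138% lower). The member differences lay between -0.35 and 0.64, with Olfr209 at 0.35 ± 0.16 (adjusted p = 0.314), Olfr1339 at 0.50 ± 0.31 (adjusted p = 0.464), Olfr212 at 0.00 ± 0.07 (adjusted p = 0.985) and Olfr319 at -0.09 ± 0.07 (SE, adjusted p = 0.592). This comparison sets surgery against stress and is not one of surgery alone.

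Within a condition, slides differed. Between the 4 CUMS mice on slide 2 and the 2 on slide 1, 23 members passed (37.1%, against 15.7% of all probes), of which 19 were lower on slide 2 (30.6%, against 9.87%) and 4 higher (6.45%, against 5.86%). Olfr1251 differed most, by -1.17 ± 0.15 (SE, adjusted p = 0.00575), followed by Olfr212 at -1.07 ± 0.08 (adjusted p = 0.00181) and Olfr1252 at -1.05 ± 0.07 (adjusted p = 0.00144). Among those higher on slide 2 was Olfr538, at 0.87 ± 0.20 (adjusted p = 0.0349). Between the 2 OVX mice on slide 3 and the 4 on slide 2, 4 members passed (6.45%, against 0.435% of all probes), all lower (0.283% of all probes; 0.152% were higher): Olfr141, Olfr704, Olfr1115 and Olfr482. Olfr103 differed by 1.45 ± 0.21 there (adjusted p = 0.0626), at -4.55 on slide 2 and -3.10 on slide 3, beside -3.19 in the OVX+CUMS mice of slide 3.

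**Figure D5:**
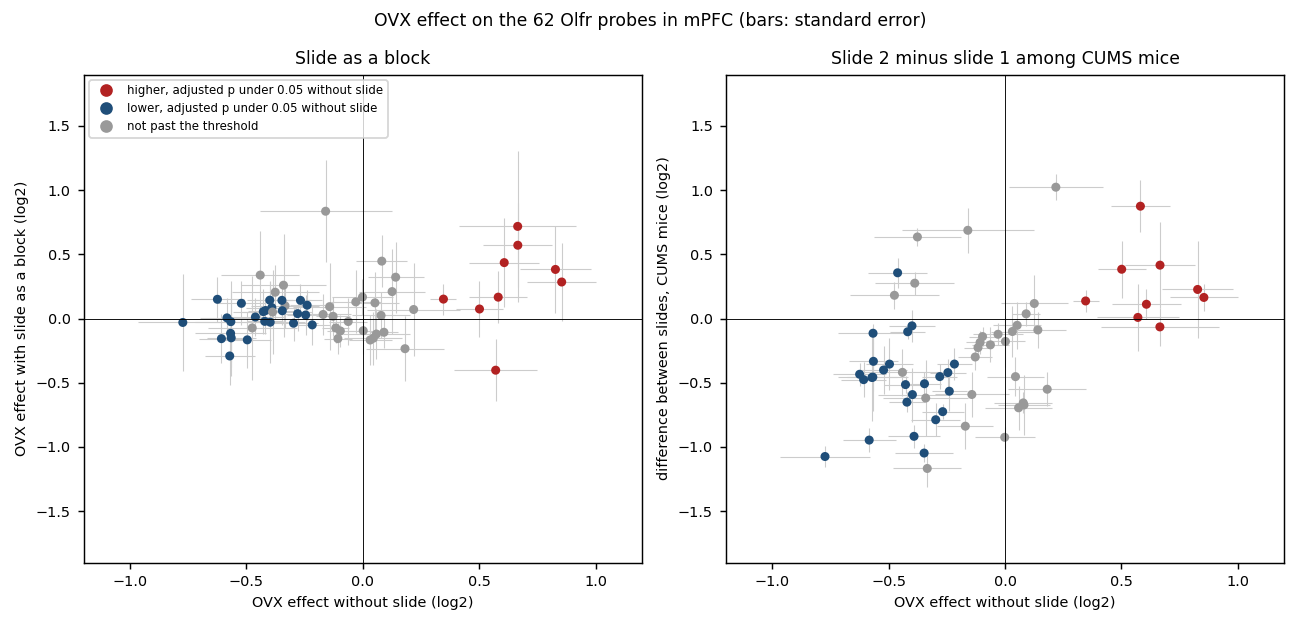
OVX effect on the 62 Olfr probes in the mPFC (log2, horizontal) against the OVX effect with slide as a block (left) and against the difference between slides among CUMS mice (right). Points are probes, bars standard errors, and color gives the call without slide. On the left no probe passes once slide is a block, and the axes on the right share the CUMS arrays.

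Measures of the arrays differed by slide too. The median local background of an array was 32 to 35 on slide 1, 29 to 31 on slide 2 and 26 to 30 on slide 3 in the mPFC, and the median raw signal of negative controls was 31.7 to 33.4, 31.1 to 32.7 and 30.0 to 31.3. The number of Olfr probes detected on an array was 133 to 243, 130 to 221 and 146 to 219, without an order by slide. The part of these measures in the OVX effects was not tested.

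For CUMS in the mPFC, 0 of 62 members passed in limma, against 4.02% of all probes (2.24% higher and 1.78% lower), and 17 members were at an unadjusted p under 0.05. The effects lay between -0.41 and 0.49, with a smallest adjusted p of 0.0710. Within slide 1, where 2 CUMS mice stood beside 6 controls, and within slide 3, where 6 OVX+CUMS mice stood beside 2 OVX mice, 0 members and 0 of all probes passed in limma, with 1 and 3 members at an unadjusted p under 0.05. This last pair of comparisons was added after the data had been seen.

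The interaction asks whether the OVX effect differed between stressed and unstressed mice. It was called for 7 members (11.3%, against 4.32% of all probes, 3.26% positive and 1.06% negative), all positive: Olfr414 by 1.14, Olfr1251 by 1.09, Olfr207 by 0.94, Olfr1252 by 0.92, Olfr319 by 0.87, Olfr1008 by 0.85 and Olfr9 by 0.78. Olfr414 lay between -2.87 and -2.70 in control mice, between -3.81 and -2.76 in CUMS mice, between -3.95 and -2.83 in OVX mice and between -3.05 and -2.50 in OVX+CUMS mice (adjusted p = 0.0344). By slide, slide 1 averaged -2.78, slide 2 averaged -3.64 and slide 3 averaged -2.85, and the 2 CUMS mice on slide 1 averaged -2.78. With slide as a block the interaction of Olfr414 was 0.08 ± 0.18 (SE) and 0 members passed. The count also ranged from 0 to 18 when single arrays were left out. It was 0 without any single one of 13 arrays and 18 without CUMS replicate 1 or CUMS replicate 2, the 2 CUMS mice of slide 1.

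In whole blood 53 of the 62 members (85.5%) were well above background on all 24 arrays, against 62.9% of the other probes detected in the mPFC. Conversely, of 163 Olfr probes detected on all blood arrays, 110 were not members. Single blood arrays detected 214 to 372 Olfr probes. Of the 9 members that were not on all blood arrays, Olfr173 was on 0 and Olfr1415 on 1, Olfr745 and Olfr681 were on 4 each, and the other 5 were on 19 to 23. The median level of the 53 in blood was -0.4.

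The brightest members in blood were Olfr544 at 4.98, Olfr1466 at 4.83, Olfr704 at 4.64 and Olfr700 at 4.39, followed by Olfr75-ps1 at 2.50, Olfr373 at 1.94, Olfr522 at 1.88 and Olfr209 at 1.77. Olfr544 and Olfr1466 were thus among the brightest in both tissues. Olfr704 stood at -3.03 and Olfr700 at -2.64 in the mPFC. Olfr209 stood at -3.63 in the mPFC.

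For OVX in blood, 36 of 53 members passed (67.9%, against 55% of 21683 probes), 4 higher (7.55%, against 26.2%) and 32 lower (60.4%, against 28.8%). Olfr1466 changed by -1.24 ± 0.23 (SE, adjusted p = 0.000341), with control arrays from 5.01 to 6.95 and OVX arrays from 3.52 to 4.30. Olfr629 changed by -1.06 ± 0.19 (adjusted p = 0.000232) and Olfr524 by -0.93 ± 0.24 (adjusted p = 0.00312). The rises included Olfr29-ps1 by 0.79 ± 0.23 (adjusted p = 0.00692), Olfr1131 by 0.70 ± 0.16 (adjusted p = 0.00125) and Olfr128 by 0.63 ± 0.20 (adjusted p = 0.0131). With slide as a block 0 members passed in limma, with 5 at an unadjusted p under 0.05. With arrays scaled on the E1A spike-in probes 9 were higher and 10 lower, where 55.1% of all probes were called. That scaling moved the median of all probes from 0.02 to 0.36, and the member median stood 0.41 below it in both scalings.

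All 9 members that rose with OVX in the mPFC were measured in blood, where 3 were higher with OVX (33.3%), 2 were lower (22.2%) and 4 did not pass. Of the 4057 probes of any gene that rose in the mPFC and were measured in both tissues, 36% were higher and 15.1% lower in blood. Of the 25 that were lower in the mPFC, 20 were measured in blood, where 18 were lower (90%) and 0 higher. Of 2723 probes of any gene that were lower in the mPFC, 58.9% were lower and 9.36% higher in blood, and 60.4% of all 53 members were lower in blood. The blood arrays had the same slide layout as the mPFC arrays, and the contrast between tissues that follows held no term for slide. The OVX effect differed between the tissues for 16 of 53 members (30.2%, against 39.1% of 18215 probes), 14 of them more positive in the mPFC (26.4%, against 19.9%) and 2 more negative (3.77%, against 19.2%). Olfr166 was among these, at 0.67 in the mPFC and -0.69 in blood (difference 1.35 ± 0.32, adjusted p = 0.00103), as were Olfr1339 (1.12 ± 0.18, adjusted p = 1.13e-05) and Olfr1466 (0.99 ± 0.25, SE, adjusted p = 0.00172).

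For CUMS in blood 16 of 53 members passed (30.2%, against 47.4% of all probes), all higher, where 19.4% of all probes were higher and 28% lower. Olfr209 rose by 1.04 ± 0.34 (SE, adjusted p = 0.0164), Olfr128 by 0.86 ± 0.20 (adjusted p = 0.00312) and Olfr29-ps1 by 0.77 ± 0.23 (adjusted p = 0.0109). Olfr209 lay between 0.75 and 1.91 in control mice and between 1.69 and 2.99 in CUMS mice, while its OVX arrays ran from -0.21 to 2.22 and its OVX+CUMS arrays from 0.80 to 3.89. With slide as a block 24 members passed (45.3%, against 48.3% of all probes), all higher (22% of all probes were higher and 26.3% lower). Olfr209 was among them, at 1.43 ± 0.38 (adjusted p = 0.0111). The blocked CUMS effect rests on slides 1 and 3, which held only 2 CUMS and 2 OVX mice beside the larger groups. For Olfr209 the 2 OVX arrays of slide 3 stood at -0.21 and 0.10, whereas the 4 OVX arrays of slide 2 lay between 1.56 and 2.22. Olfr128 at 0.51 ± 0.25 (adjusted p = 0.0886) and Olfr29-ps1 at 0.64 ± 0.32 (adjusted p = 0.0959) did not pass in that fit. On the E1A scale only 1 member passed, against 43.7% of all probes. The member median stood 0.31 above the median of all probes under both scalings. The interaction in blood was called for 0 of 53 members by limma (1.15% of all probes, 1.04% positive and 0.106% negative), with 12 at an unadjusted p under 0.05.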

How the data were processed

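Gene expression was measured with one-color Agilent 8x60K mouse arrays of 24 mPFC and 24 whole blood samples. The authors deposited scanner files of Agilent Feature Extraction, whose intensity values (processed signal) are already background-subtracted, and a table of log2 values deposited after a 75th percentile shift, which was used as an alternative. Gene names and mm9 coordinates are those of the array files. Of the 62 member names, 59 matched the RefSeq table (GRCm38.p6), used for gene length only.

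The log2 processed signal, shifted by each array's 75th percentile, was fitted with limma 3.58.1 in R 4.3.3 (OVX, CUMS and their interaction), with Benjamini-Hochberg adjusted p under 0.05 over all probes well above background on the 24 arrays of a tissue. The tissue difference used group and replicate number as a random block, as if equal numbers were the same mouse. The correlation within this block was 0.0585. Control spots and outlier-marked spots were left out, which removed 0 member values. The named probes were the 8 brightest in each tissue, those with the 6 highest rises and 6 deepest falls past the threshold for OVX in the mPFC, 3 of each for the other effects, those at the detection limit and those with a second probe. The members and lists were chosen with earlier results of these data known. The fit was tested on simulated data. Alternatives of background, scaling, filter, spread, slide and left-out arrays were run. Signal over background and the number of arrays limit the precision. Mice of a group were separate animals.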

Additional observations from a re-analysis of the deposited data

Results flagged for a closer look

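Of 140 sets of 6 arrays examined for the named members, 14 held an array whose gap to the next exceeded Dixon's 95% critical share of the range, where chance gives about 1 in 20. In the mPFC these were Olfr544 in control replicate 5 (3.05) and OVX replicate 5 (2.80), Olfr1229 in OVX replicate 3 (0.33, the others -0.65 to -0.53), Olfr29-ps1 in CUMS replicate 6 (-3.27), Olfr166 in control replicate 5 (-2.49), CUMS replicate 6 (-4.15) and OVX+CUMS replicate 3 (-0.67), Olfr391-ps in control replicate 1 (-4.02) and OVX+CUMS replicate 3 (-1.28), Olfr538 in OVX replicate 6 (-3.89), Olfr212 in OVX+CUMS replicate 2 (-0.75, the others -2.93 to -2.49) and Olfr745 in OVX+CUMS replicate 6 (-2.98). In blood they were Olfr544 (5.95) and Olfr1466 (6.95), both in control replicate 2.

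The effect of OVX in the mPFC differed between stressed and unstressed mice, by the interaction term, for Olfr414 (1.14), Olfr1251 (1.09), Olfr207 (0.94), Olfr1252 (0.92), Olfr319 (0.87), Olfr1008 (0.85) and Olfr9 (0.78), and for none of them with slide as a block.

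The effect of OVX differed between mPFC and blood, by the contrast of the 2 effects, for Olfr166 (1.35), Olfr1339 (1.12), Olfr1466 (0.99), Olfr538 (0.98), Olfr209 (0.97), Olfr629 (0.84) and Olfr1131 (-0.64) among the members named for OVX. This contrast held no term for slide. With slide as a block, no member passed for OVX in either tissue.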

How the results depend on the processing

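The counts of called members were within 1.5 times of the reported ones under normexp background correction, quantile normalization, a 75th percentile over detected probes, the filter of the study's methods and the deposited normalized values. Slide as a block left 0 calls for OVX in the mPFC, 0 for the interaction and 0 for OVX in blood. Scaling on the E1A spike-in probes gave 17 calls among the 62 members for CUMS in the mPFC, all lower. On that scale 22.3% of all probes were called for CUMS there, and their median change was -0.12. The same scaling gave 0 calls for the interaction, 19 for OVX in blood (55.1% of all probes) and 1 for CUMS in blood (43.7% of all probes). The fit without moderation of the spread called 1 interaction. With no detection filter all 1196 Olfr probes entered, of which 62 are members. Of the 1196, 68 were called for OVX in the mPFC, 0 for the interaction, 393 for OVX in blood and 119 for CUMS in blood. Between OVX and CUMS mice on slide 2, 348 were called (347 higher in OVX). The 1134 Olfr probes that are not members had a median mPFC level of -7.19. The share of all probes called without the filter is not given here, so these counts are not read as particular to Olfr probes. Without single arrays the counts ranged from 28 to 34 for OVX in the mPFC, 0 to 6 for CUMS, 0 to 18 for the interaction, 33 to 39 for OVX in blood and 14 to 27 for CUMS in blood (26 without control replicate 2 and 27 without CUMS replicate 4).

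With the replicate number as a block, the interaction was called for 1 member. Within a tissue, samples of the same number in different groups did not deviate together (median correlation 0.04 in the mPFC and -0.09 in blood). Of the arrays, 7 of 24 in the mPFC and 6 of 24 in blood correlated best with their own number. The numbers were therefore not taken as pairs between groups. Of 24 named effects, 6 changed sign with slide as a block: in the mPFC Olfr96 (0.15) and Olfr319 (0.01) for OVX and Olfr1251 (-0.03) for the interaction, and in blood Olfr1131 (-0.23), Olfr128 (-0.07) and Olfr524 (0.28) for OVX. The causes were not tested. None changed sign under any other alternative run. Signal over background limits the dim members: Olfr1339 fell to a signal of 18.2, while the dimmest signal marked well above background on an mPFC array was 10.5 to 22.6.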
